A study of Mus musculus with 16 samples.

Results

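Medullary sinus macrophages (MSMs) from tumor-draining lymph nodes (tdLNs) were compared with MSMs from non-draining lymph nodes (ndLNs). The members were chosen by their labels alone: the CD11c+ fraction of either node, which is 8 of the 16 sequenced samples, or 4 of 8 libraries once the 2 lanes of each library were summed, and thus 2 libraries a side. The change was described across all 21085 genes tested. The other 4 libraries were sub-capsular sinus macrophages (SSMs), the CD11c- fraction of the same nodes, and serve here for comparison.

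All nodes came from male C57B/6 mice that carried a MOC2 tumor, a chemically induced squamous cell carcinoma line of which 500000 cells had been implanted intradermally in the flank. Nodes were taken after 2 weeks. Each library was made from nodes of 2 mice pooled, 2 tdLNs or 6 ndLNs (contralateral inguinal, axillary and brachial nodes). The ndLNs therefore came from tumor-bearing animals too, and no node of a tumor-free mouse is analysed here. Node position differed between the groups as well, and its part cannot be told apart from that of tumor drainage. MSMs had been sorted as live CD45+ cells without CD3, B220 and Ly6G that carried CD11b, CD169 and CD11c and had high side scatter.

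Macrophages of the medullary sinuses line the channels through which lymph leaves the node. They take up particles, dying cells and immune complexes from it and degrade them, and are known for scavenger receptors and lysosomal activity. Conventional dendritic cells also carry CD11c and present antigen to T cells. Type 1 dendritic cells carry the receptor Xcr1, and mature ones carry Ccr7. T cells, which dendritic cells prime in the node, are defined by the T cell receptor and the CD3 complex.

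The 4 MSM libraries held between 43018644 and 48130352 counts, so 3 counts correspond to at most 0.0697 CPM (counts scaled to the library total) in any of them. Between 14.1% and 16.1% of counts fell on the 10 top genes of a library, and between 0.237% and 0.476% on mitochondrial genes. The first principal component of the MSM libraries carried 55.9% of the variance and placed both tdLN libraries on one side and both ndLN libraries on the other, and the second (26.1%) set the 2 ndLN libraries apart from each other. Library 1 of the ndLNs alone held high levels of several immunoglobulin genes, which are given beside those genes. For interferon-stimulated genes ndLN library 2 was the lowest. Their summed level was 2651 and 1330 CPM in the ndLN libraries and 2053 and 2252 CPM in the tdLN libraries. All levels below are CPM scaled by TMM (trimmed mean of M-values).

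The marker genes of the sort were checked first. Itgax, which encodes CD11c, was at 396 and 418 CPM in the ndLN libraries and 385 and 316 CPM in the tdLN libraries, a difference that did not pass the test (log2 fold change -0.23 ± 0.18 SE, adjusted p = 0.65). Siglec1, which encodes the gate marker CD169, was at 0.795 and 1.63 CPM in the ndLN libraries and 5.96 and 5.64 CPM in the tdLN libraries. Itgam, which encodes CD11b, was at 9.64 and 10.7 CPM in the ndLN libraries and 20.4 and 13.7 CPM in the tdLN libraries. Per kilobase of exon, Siglec1 lay between 0.111 and 0.835 CPM in the MSM libraries, Itgam between 1.92 and 4.05 CPM, Itgax between 65.8 and 87.1 CPM and Xcr1 between 142 and 169 CPM. Transcripts of dendritic cells were thus abundant in every MSM library, with Xcr1 at 752 and 701 CPM in the ndLN libraries and 630.4 and 752 CPM in the tdLN libraries and the dendritic cell lectin Clec9a at 200.1 and 203 CPM in the ndLN libraries and 132 and 179 CPM in the tdLN libraries, while Siglec1, the defining macrophage marker of the gate, was low in all 4. Other genes of macrophages were not all low. Per kilobase of exon in the MSM libraries, Lyz2 lay between 3038 and 3523 CPM and Cd68 between 259 and 306 CPM. Csf1r lay between 33.6 and 70.2 CPM, Adgre1 between 18.8 and 35.7 CPM and Mertk between 0.622 and 1.68 CPM. The name MSM is kept below for the CD11c+ fraction as labelled.

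Few genes passed the test one by one. At an adjusted p under 0.01 and a mean normalized count over 100, edgeR's quasi-likelihood test called 5 of 21085 genes (0.0237%), 1 higher and 4 lower in MSMs from tdLNs. At the same thresholds 9 genes were called without the pool number in the model, all lower, of which 4 were among the 5. A DESeq2 Wald test on the same libraries called 496 genes, including all 5. At an adjusted p under 0.05 with the same count cut-off, called the relaxed threshold below, 93 genes passed, 26 higher (0.123% of all genes) and 67 lower (0.318%), and 2517 genes had an unadjusted p under 0.05. When only the 4 MSM libraries were fitted with the pool number, no gene passed at 0.01 with edgeR, although 2729 genes had an unadjusted p under 0.05. Each call also depended on both libraries of a side. Without ndLN library 1 no gene was called, without ndLN library 2 there was 1 (Iglv2), without tdLN library 1 none and without tdLN library 2 there were 3 (Ighg1, Igkv10-96 and Ighv1-19), immunoglobulin genes named after their values were seen, and none of these was among the 5. Of the 93 genes, between 1 and 7 still passed the relaxed threshold with 1 library left out, and all kept their direction but Iglv2 without ndLN library 1. Kept directions were largely fixed in advance, since these genes had been selected on the same libraries. The median log2 fold change over all genes was 0.01.

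**Figure D1:**
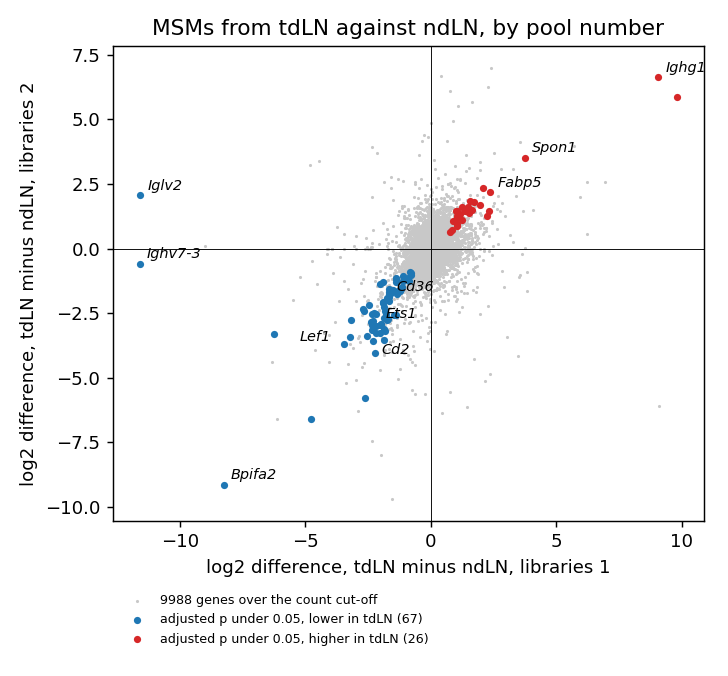
Log2 difference between MSMs from tdLNs and ndLNs in the libraries numbered 1 (horizontal axis) against those numbered 2 (vertical axis), 1 point per gene over the count cut-off (9988 genes). Blue points (67) were lower and red points (26) higher in tdLNs at an adjusted p under 0.05. Since the test selects genes that moved alike, the agreement of the coloured points is no result, but Iglv2 and Ighv7-3 stand apart because their difference lay in the libraries numbered 1.

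The 4 genes that fell were Ets1, Lef1, Cd2 and Bpifa2, and the gene that rose was Spon1. Ets1, a transcription factor of lymphocytes (chromosome 9, 32636221 to 32757820, GRCm38), was at 57.6 and 80.8 CPM in the ndLN libraries and 11.004 and 11.2 CPM in the tdLN libraries (log2 fold change -2.63 ± 0.16 SE, adjusted p = 0.0088). Lef1, a partner of beta-catenin in T cells (chromosome 3, 131110471 to 131224356), was at 18.8 and 20.3 CPM in the ndLN libraries and 1.99 and 1.85 CPM in the tdLN libraries (log2 fold change -3.35 ± 0.25 SE, adjusted p = 0.0096). Cd2, an adhesion receptor of T and NK cells (chromosome 3, 101275899 to 101287939), was at 28.9 and 35.8 CPM in the ndLN libraries and 4.87 and 3.43 CPM in the tdLN libraries (log2 fold change -2.97 ± 0.23 SE, adjusted p = 0.0096). In all 3 of them, selected by the test on these same libraries, both tdLN libraries were below both ndLN libraries, by more than the distance within either pair.

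The same 3 genes were more abundant in the SSM fraction of the same nodes. Ets1 in SSMs was at 938 and 1064 CPM in the ndLN libraries and 418 and 439.8 CPM in the tdLN libraries. Lef1 in SSMs was at 42.3 and 51.9 CPM in the ndLN libraries and 17.2 and 18.8 CPM in the tdLN libraries, and Cd2 was at 191 and 191 CPM in the ndLN libraries and 113 and 128 CPM in the tdLN libraries. Their tdLN libraries were lower in the SSM fraction too, and the fall was steeper in MSMs by the test of the difference (difference of the log2 fold changes -1.41 ± 0.21 SE, adjusted p = 0.035 for Ets1). The same held for Lef1 (difference of the log2 fold changes -1.97 ± 0.32 SE, adjusted p = 0.04) and Cd2 (difference of the log2 fold changes -2.30 ± 0.29 SE, adjusted p = 0.021). These 3 genes had been selected on their change in MSMs, which is part of that difference. A steeper fall in MSMs was thus favoured in advance and is no independent result.

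Spon1 encodes spondin 1, an extracellular matrix protein (chromosome 7, 113765998 to 114043370). It was at 6.38 and 4.93 CPM in the ndLN libraries and 86.4 and 57.1 CPM in the tdLN libraries, so that the lower tdLN library held over 8 times the level of the higher ndLN library (log2 fold change 3.65 ± 0.28 SE, adjusted p = 0.0096). In SSMs Spon1 was at 47.3 and 18.6 CPM in the ndLN libraries and 408 and 306 CPM in the tdLN libraries. Bpifa2 encodes a secreted protein of the parotid gland (chromosome 2, 154008265 to 154016079). It was at 28.4 and 24.7 CPM in the ndLN libraries and at 0.0485 and 0 CPM in the tdLN libraries, where neither library reached 3 counts, and was thus at least 382-fold lower against a floor of 3 counts per library (adjusted p = 0.0088). The SSM libraries split the same way, with Bpifa2 at 61.6 and 59.4 CPM in the ndLN libraries and 0.0224 and 0 CPM in the tdLN libraries. Of 10 fat and salivary gland genes 6 were tested, 4 had both tdLN libraries lower and Bpifa2 was the 1 called. Amy1, a salivary amylase, was at 6.79 and 5.99 CPM against 0 and 0.132 CPM (adjusted p = 0.018, below the count cut-off), and Smr3a, another salivary gene, was at 2.77 and 3.86 CPM against 0 and 0.0220 CPM. Amy1 and Smr3a share 33.3% and 41.9% of their 50-base windows with other genes, so that their counts are uncertain.

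T cell receptor and signalling genes were lower as a group. Of 24 members, all tested, 12 fell at the relaxed threshold and none rose, and 22 had both tdLN libraries below both ndLN libraries, where 18.1% of all genes tested did so (and 20.4% had both above). Of the genes over the count cut-off 24.85% had both tdLN libraries lower and 24.98% both higher, shares to set beside the counts of every list below. Of these 9988 genes, 815 were higher and 1004 lower at an unadjusted p under 0.05. DESeq2's Wald test called 281 of them higher and 530 lower at 0.05. List counts by unadjusted p or by the Wald test are to be read beside these numbers. The median log2 fold change of the T cell list was -2.14, beside 0.01 over all genes. Cd3e, a chain of the CD3 complex, was at 12.3 and 16.3 CPM in the ndLN libraries and 3.05 and 2.14 CPM in the tdLN libraries (log2 fold change -2.47 ± 0.27 SE, adjusted p = 0.018). Trbc1 and Trbc2, the beta chain constant genes, were at 13.5 and 22.6 CPM against 2.91 and 2.33 CPM and 18.8 and 39.3 CPM against 5.09 and 3.37 CPM. These share 40.5% and 44.0% of their 50-base windows with other genes, so their counts cannot be fully separated. Trac, the alpha chain constant gene, was at 38.9 and 37.2 CPM in the ndLN libraries and 9.99 and 3.32 CPM in the tdLN libraries and missed the threshold (adjusted p = 0.053).

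Genes of the signalling chain below the receptor followed. Lat, the adaptor of the receptor, was at 14.3 and 22.4 CPM in the ndLN libraries and 2.79 and 2.51 CPM in the tdLN libraries (adjusted p = 0.012). Lck, its kinase, was at 38.5 and 44.7 CPM in the ndLN libraries and 10.9 and 8.23 CPM in the tdLN libraries (adjusted p = 0.014). Zap70 was at 6.49 and 8.18 CPM against 0.945 and 1.59 CPM and the costimulatory receptor Cd28 at 13.9 and 27.03 CPM against 3.51 and 3.41 CPM. Cd4 and Cd8a did not separate the groups, with Cd8a at 605 and 387 CPM in the ndLN libraries and 357 and 439 CPM in the tdLN libraries and Cd4 at 87.8 and 116 CPM in the ndLN libraries and 88.01 and 58.4 CPM in the tdLN libraries. Both are also made by dendritic cells or macrophages of the node.

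The summed level of the 22 members other than Cd4 and Cd8a, a subset set after the values were seen, was 425 and 565 CPM in the ndLN libraries and 144 and 120.1 CPM in the tdLN libraries of MSMs. In SSMs it was between 5258 and 6075 CPM in ndLNs and between 2545 and 2924 CPM in tdLNs. Fewer T cells in the sorted fraction and less RNA per cell cannot be told apart in such bulk libraries, and the sort had selected against CD3. Of the 67 genes lower at the relaxed threshold, 44 were over 2 times as high in both ndLN libraries of SSMs as in both ndLN libraries of MSMs, a property of 10.8% of the genes over the count cut-off. The count cut-off and the fitted spread used all 8 libraries, so SSM levels bear on which genes are among the 67. The count of 44 is thus no independent result. The part of T cell material in the differences between tdLN and ndLN libraries was not tested.

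**Figure D2:**
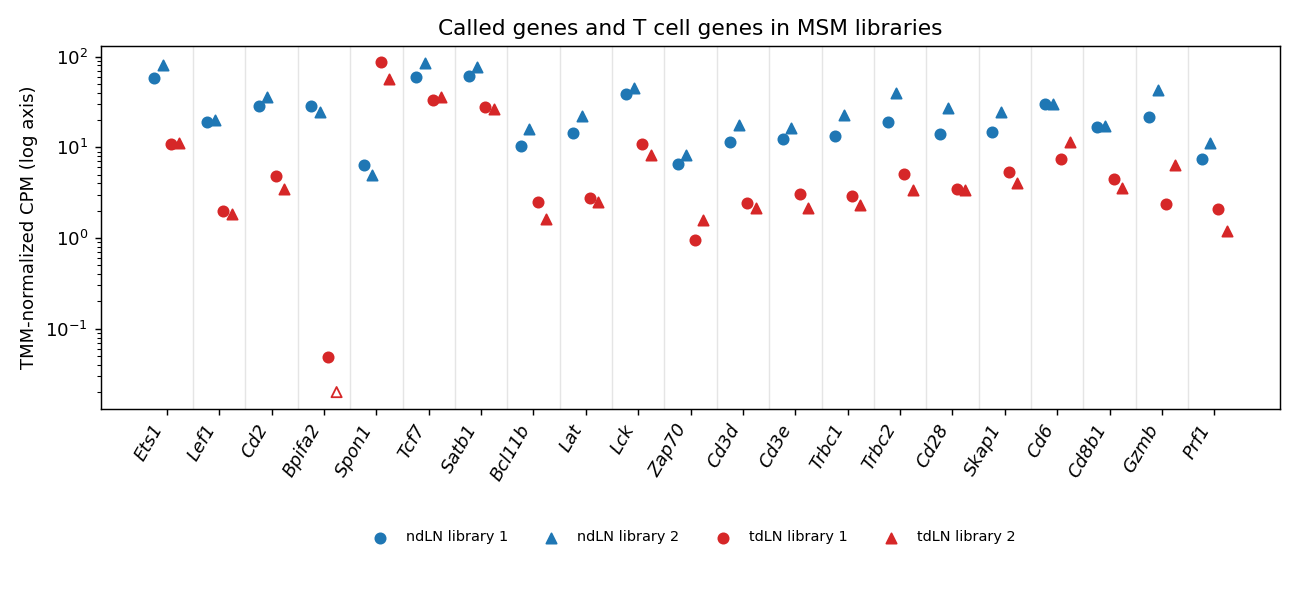
TMM-normalized CPM (log axis) in each MSM library for the 5 called genes and for T cell and cytotoxic genes that passed the relaxed threshold. Blue marks ndLNs and red tdLNs, circles are libraries 1 and triangles libraries 2, and the open symbol marks a level of 0, drawn at the bottom. Only Spon1 lies higher in the tdLN libraries. For every gene shown the 2 colours do not overlap, which is no further result since the test selects such genes.

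Transcription factors of the T lineage were lower as well. Of 14 members 5 fell at the relaxed threshold (Lef1, Ets1, Bcl11b, Satb1 and Tcf7), 12 had both tdLN libraries lower and the median log2 fold change was -1.52. Bcl11b, required for T cell commitment, was at 10.4 and 15.8 CPM in the ndLN libraries and 2.50 and 1.61 CPM in the tdLN libraries (adjusted p = 0.025). Tcf7, the gene of TCF1, was at 59.8 and 85.3 CPM in the ndLN libraries and 33.1 and 36.1 CPM in the tdLN libraries (adjusted p = 0.036) and Satb1, a chromatin organizer, at 61.5 and 76.2 CPM against 27.5 and 26.8 CPM (adjusted p = 0.018). The 2 members with both tdLN libraries higher were Ikzf1 at 55.9 and 62.4 CPM against 82.4 and 79.2 CPM and Zbtb7b at 4.26 and 3.63 CPM against 7.30 and 10.4 CPM, neither past the threshold. Among 13 genes linked to Wnt signalling and TCF/LEF factors, 4 fell, among them Lef1 and Tcf7 again and S1pr1, a receptor that guides lymphocytes out of the node (22.9 and 40.2 CPM against 8.75 and 6.67 CPM). The Wnt feedback gene Axin2 was at 0.564 and 0.0446 CPM against 0.242 and 0.352 CPM and was not called.

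Cytotoxic effectors split. Gzmb, which encodes granzyme B, was at 21.8 and 43.2 CPM in the ndLN libraries and 2.38 and 6.32 CPM in the tdLN libraries (log2 fold change -2.89 ± 0.35 SE, adjusted p = 0.028), and Prf1, which encodes perforin, was at 7.46 and 11.1 CPM in the ndLN libraries and 2.08 and 1.19 CPM in the tdLN libraries (log2 fold change -2.52 ± 0.36 SE, adjusted p = 0.042). Both fell at the relaxed threshold. Ccl5, a chemokine of cytotoxic lymphocytes that myeloid cells make too, went the other way with 145 and 232 CPM in the ndLN libraries and 404 and 521 CPM in the tdLN libraries but did not pass (adjusted p = 0.13). Ncr1, the defining receptor of NK cells, was low at 1.10 and 1.76 CPM against 1.33 and 2.62 CPM. Of the 11 members 5 had both tdLN libraries lower and 1 both higher.

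Il2rb, Sh2d2a and Cd27, other lymphoid genes past the relaxed threshold, were in no list and are named here after their values were seen. Il2rb, the beta chain of the interleukin 2 receptor, was at 62.5 and 86.6 CPM in the ndLN libraries and 18.3 and 15.1 CPM in the tdLN libraries (adjusted p = 0.012). Sh2d2a, a T cell adaptor, was at 18.4 and 26.3 CPM against 3.54 and 3.37 CPM and Cd27 was at 10.9 and 15.6 CPM against 2.18 and 1.28 CPM. All 3 fell. Of 23 chemokine receptor genes 21 were tested, 7 had both tdLN libraries higher and 6 both lower. Over all genes past the count cut-off these shares were 24.98% and 24.85%. The median log2 fold change of the receptors was 0.21 (-0.04 without tdLN library 1 and 0.34 without tdLN library 2). The 2 that passed, Cxcr6 at 17.9 and 20.8 CPM against 4.41 and 2.62 CPM and Ccr8 at 6.31 and 12.2 CPM against 0.994 and 0.176 CPM, fell. Ccr2, a receptor of monocytes, was at 192 and 141 CPM against 233 and 195 CPM and Ccr7 at 1662 and 1644 CPM against 2099.9 and 2064 CPM, both higher in the tdLN libraries without passing (adjusted p = 0.32 and 0.53). Genes of IL-17 producing and innate-like lymphocytes were low in all MSM libraries. The fitted change was negative in all 12 members, with a median of -1.78 on the log2 scale (between -2.36 and -1.04 over 7 alternatives). Both tdLN libraries were lower in 6, and none passed the relaxed threshold with edgeR. At an unadjusted p under 0.05 there were 4, and DESeq2's Wald test called 4 at 0.05, all lower. Il17a was counted in 1 ndLN library alone (0.743 and 0 CPM against 0 and 0 CPM).

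B cell genes were lower in most members, immunoglobulin genes differed in both directions, and single libraries carried much of the difference. Of 16 B cell genes 6 had both tdLN libraries lower and 2 both higher. None passed the relaxed threshold with edgeR or with DESeq2's Wald test. With edgeR 7 were lower and 1 higher at an unadjusted p under 0.05. The fitted change was negative in 10 members and positive in 6. Its median was -0.89 on the log2 scale (between -0.93 and -0.30 over 7 alternatives). Cd79a, a chain of the B cell receptor, was at 3.97 and 9.69 CPM in the ndLN libraries and 2.50 and 2.03 CPM in the tdLN libraries (adjusted p = 0.24). Ighm, the constant gene of IgM, was at 1459.9 and 300.1 CPM in the ndLN libraries and 286 and 312 CPM in the tdLN libraries. Library 1 of the ndLNs was thus far above the other 3.

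Ighg1, the constant gene of IgG1, was at 0.795 and 0.869 CPM in the ndLN libraries and 450.0 and 89.95 CPM in the tdLN libraries. It rose at the relaxed threshold (log2 fold change 8.18 ± 1.11 SE, adjusted p = 0.035), although the tdLN libraries differed widely from each other. Igkv10-96, a kappa light chain variable gene, was at 0.0769 and 0.201 CPM in the ndLN libraries and 107 and 14.1 CPM in the tdLN libraries (adjusted p = 0.02), and Igkc, the kappa constant gene, was at 19.4 and 27.1 CPM in the ndLN libraries and 247 and 75.1 CPM in the tdLN libraries (adjusted p = 0.37). The 2 variable genes called lower, Iglv2 and Ighv7-3, rested on 1 library. Iglv2 was at 284 and 0.178 CPM in the ndLN libraries and 0.0485 and 0.881 CPM in the tdLN libraries and Ighv7-3 at 211 and 0.0223 CPM in the ndLN libraries and 0.0242 and 0 CPM in the tdLN libraries, so ndLN library 1 held nearly all of their counts, as it did for Iglc2 at 469 and 1.76 CPM against 0.873 and 1.89 CPM. Igkv10-96 and Iglv2 share 32.6% and 21.1% of their 50-base windows with other genes, which makes their counts uncertain. Without that ndLN library the log2 fold change of Iglv2 was 2.24 in place of -7.63. Of 348 variable genes 92 were tested, 23 with both tdLN libraries higher and 2 with both lower.

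Jchain, the joining chain of secreted IgM and IgA and a marker of plasma cells, was high in library 1 of either group (107 and 1.92 CPM against 55.3 and 4.40 CPM). Mzb1, another plasma cell gene, was at most 0.242 CPM in any MSM library. The levels of these genes in all MSM libraries are shown in the plot of immunoglobulin genes. Of the 13 plasma cell genes, among them Ighg1, 3 had both tdLN libraries higher and 3 both lower, and the median log2 fold change was -0.23 (-0.84 without tdLN library 1 and 0.30 without tdLN library 2). The part of plasma cells in the difference of Ighg1 was not tested.

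**Figure D3:**
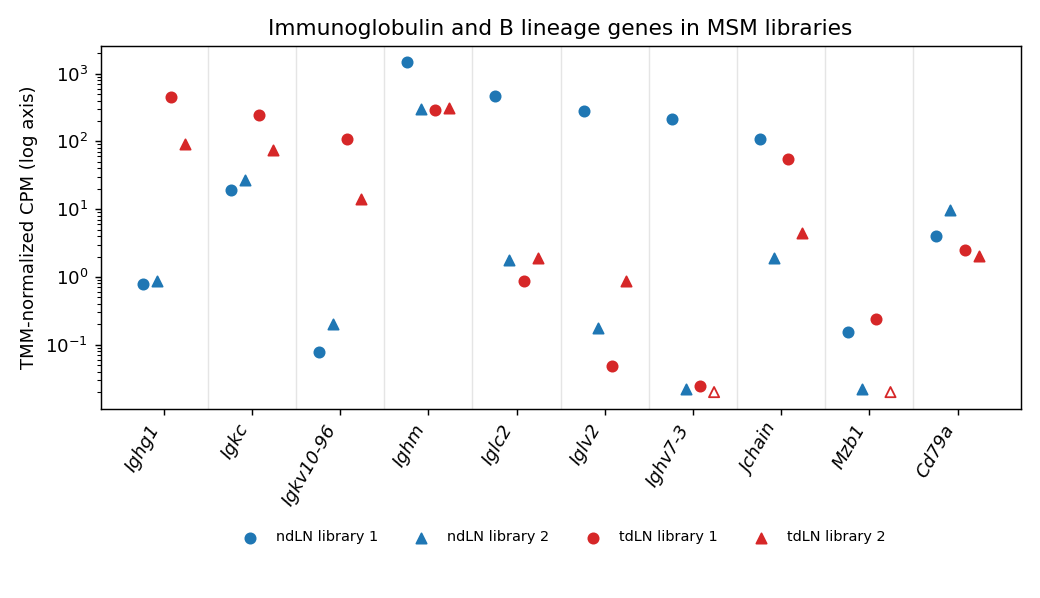
TMM-normalized CPM (log axis) of immunoglobulin and B lineage genes in each MSM library, with ndLNs in blue and tdLNs in red, libraries 1 as circles and libraries 2 as triangles, and open symbols for a level of 0. Ighg1, Igkc and Igkv10-96 are high in both tdLN libraries, whereas Iglc2, Iglv2 and Ighv7-3 are high in ndLN library 1 alone.

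Genes of lipid handling, a task of phagocytes, were changed in both directions. Fabp5, a fatty acid binding protein, was at 65.8 and 94.6 CPM in the ndLN libraries and 337 and 430.1 CPM in the tdLN libraries (log2 fold change 2.27 ± 0.21 SE, adjusted p = 0.012) and rose. Pltp, a phospholipid transfer protein, rose too and was at 50.9 and 60.9 CPM in the ndLN libraries and 242 and 145 CPM in the tdLN libraries (adjusted p = 0.031). Cd36, a scavenger receptor for lipids and lipoproteins, fell and was at 545 and 468 CPM in the ndLN libraries and 171 and 129 CPM in the tdLN libraries (log2 fold change -1.76 ± 0.15 SE, adjusted p = 0.012). Of 16 genes of lipid handling, 2 thus rose and 1 fell at the relaxed threshold. Both tdLN libraries were higher in 9, including Fabp4 at 1.26 and 0.758 CPM against 7.47 and 10.3 CPM, the cholesterol exporter Abcg1 at 26.9 and 25.8 CPM against 53.7 and 61.4 CPM and the sterol receptor Nr1h3 at 10.9 and 12.1 CPM against 27.4 and 20.1 CPM. The median log2 fold change of the list was 0.47 (1.00 in the libraries numbered 1 and 0.29 in those numbered 2), and it was 0.19 without ndLN library 1 and 1.04 without ndLN library 2. Single values ran from Cd36 at one end to Fabp4 at the other (-1.76 ± 0.15 and 3.17 ± 0.64 SE).

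Genes of sinus macrophages were higher in most members, but few passed alone. Of 20 members 11 had both tdLN libraries higher and 2 both lower, and the median log2 fold change was 0.67 (0.94 in the libraries numbered 1 and 0.32 in those numbered 2, 0.38 without ndLN library 1 and 0.96 without ndLN library 2). With edgeR 1 passed the relaxed threshold, Timd4, which fell, while DESeq2's Wald test called 5 higher and 1 lower at 0.05. Timd4, a receptor for phosphatidylserine on dying cells, was at 74.4 and 78.6 CPM in the ndLN libraries and 19.8 and 31.7 CPM in the tdLN libraries (log2 fold change -1.59 ± 0.20 SE, adjusted p = 0.03). The complement genes C1qa (10.2 and 30.2 CPM against 79.5 and 71.99 CPM), C1qb (26.995 and 58.7 CPM against 148 and 124 CPM) and C1qc (18.3 and 38.7 CPM against 84.9 and 66.9 CPM) were higher in both tdLN libraries, with adjusted p-values of 0.17, 0.15 and 0.17. Csf1r, the receptor for macrophage colony stimulating factor, was at 209 and 202 CPM against 405 and 194 CPM, so that tdLN library 1 alone was higher, and Lyz2, the lysozyme of macrophages, was at 3998 and 4636 CPM against 4097 and 4042 CPM.

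Spic, a transcription factor of macrophages that recycle iron, rose and was at 17.2 and 12.9 CPM in the ndLN libraries and 50.6 and 45.7 CPM in the tdLN libraries (log2 fold change 1.69 ± 0.17 SE, adjusted p = 0.018). Of 14 genes of iron and heme handling, 13 were tested and Spic was the 1 that passed the relaxed threshold. Hmox1, the heme oxygenase, was at 18.6 and 24.6 CPM in the ndLN libraries and 52.8 and 46.6 CPM in the tdLN libraries (adjusted p = 0.057). Trf, which encodes transferrin, was at 683 and 612 CPM in the ndLN libraries and 271 and 209 CPM in the tdLN libraries (adjusted p = 0.053). Hmox1 and Trf separated the groups in opposite directions without passing.

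Receptors for antibody were higher in most members, and complement genes were mixed. Of 11 Fc receptor genes 7 had both tdLN libraries higher, with a median log2 fold change of 0.44 (0.71 without ndLN library 2). None passed the relaxed threshold with edgeR. At an unadjusted p under 0.05, 3 were higher and 1 lower, and DESeq2's Wald test called 3 at 0.05, all higher. Fcer1g, the signalling chain of activating Fc receptors, was at 180.2 and 199.5 CPM in the ndLN libraries and 364 and 313 CPM in the tdLN libraries (adjusted p = 0.19), and Fcgr1 was at 6.26 and 1.07 CPM in the ndLN libraries and 14.2 and 7.001 CPM in the tdLN libraries (adjusted p = 0.33). Fcer1a, the alpha chain of the IgE receptor of mast cells and basophils, was the member with both tdLN libraries lower (0.0513 and 0.0223 CPM against 0 and 0 CPM). All of its levels were under 3 counts and could not be told from 0. Of 16 complement genes 15 were tested, 6 with both tdLN libraries higher and 3 with both lower, and none passed with edgeR. At an unadjusted p under 0.05, 5 were higher and 1 lower, and DESeq2's Wald test called 3 at 0.05, all higher. C3, the central component, was at 31.97 and 33.9 CPM against 87.6 and 49.3 CPM (adjusted p = 0.16). The median of the complement list was 0.71 over both pools, but 1.23 in the libraries numbered 1 and -0.03 in those numbered 2, and it was 0.25 without ndLN library 1 and 1.27 without ndLN library 2.

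Lysosomal genes showed little common shift. The counts of the list are to be read beside the 24.98% (both tdLN libraries higher) and 24.85% (both lower) of genes over the count cut-off. Lamp1 and Cd63, membrane proteins of lysosomes and late endosomes, rose at the relaxed threshold. Lamp1 was at 337 and 342 CPM in the ndLN libraries and 573 and 541 CPM in the tdLN libraries (log2 fold change 0.71 ± 0.11 SE, adjusted p = 0.049) and Cd63 at 179 and 181 CPM in the ndLN libraries and 404 and 457 CPM in the tdLN libraries (log2 fold change 1.25 ± 0.17 SE, adjusted p = 0.032). Ctsw, a cathepsin of cytotoxic lymphocytes, fell and was at 11.9 and 16.1 CPM in the ndLN libraries and 3.71 and 4.93 CPM in the tdLN libraries (adjusted p = 0.046). Of the 31 members 12 had both tdLN libraries higher and 7 both lower, and the median log2 fold change was 0.08 (0.03 without tdLN library 2 and 0.19 without ndLN library 2). Ctss, the cathepsin that trims the invariant chain, was at 1198 and 1154 CPM against 1629 and 1566 CPM (adjusted p = 0.31).

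Among dendritic cell genes the type 1 list showed no common shift. Of its 9 members Itgae rose at the relaxed threshold, and 3 had both tdLN libraries higher and 2 both lower. These counts are near the shares over all genes past the count cut-off (24.98% and 24.85%). The median log2 fold change of the list was -0.08. Itgae, the integrin alpha E chain (CD103), was at 146 and 164 CPM in the ndLN libraries and 301 and 321 CPM in the tdLN libraries (log2 fold change 1.01 ± 0.13 SE, adjusted p = 0.03). Xcr1 did not pass (log2 fold change -0.08 ± 0.15 SE, adjusted p = 0.89), nor did Clec9a (log2 fold change -0.38 ± 0.21 SE, adjusted p = 0.53). Of 15 genes of mature dendritic cells 10 had both tdLN libraries higher and 3 both lower, with a median of 0.41 (0.83 without ndLN library 1), and Il15ra, which presents interleukin 15, passed at 27.1 and 20.9 CPM against 63.7 and 64.3 CPM (adjusted p = 0.031).

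The members of that list with both tdLN libraries higher included the actin bundler Fscn1 at 579 and 718 CPM against 1335 and 1452 CPM, Cd40 at 219.9 and 205 CPM against 371 and 372 CPM and the PD-1 ligand gene Pdcd1lg2 at 13.9 and 5.95 CPM against 54.5 and 48.9 CPM, with adjusted p-values of 0.13, 0.082 and 0.086. The 3 with both lower were the costimulatory ligands Cd80 at 189 and 237 CPM against 111 and 92.7 CPM and Cd86 at 999 and 875 CPM against 659 and 586 CPM, and Cd83 at 5447 and 4812 CPM against 3324 and 3019.5 CPM (adjusted p = 0.062, 0.15 and 0.18 in turn). The list thus held members on either side, with 8 of 15 higher and 3 lower at an unadjusted p under 0.05. Cd207, which encodes langerin and marks Langerhans cells and some dendritic cells, was at 126 and 68.9 CPM in the ndLN libraries and 21.9 and 17.4 CPM in the tdLN libraries (log2 fold change -2.28 ± 0.37 SE, adjusted p = 0.059). Cd209a, a lectin of type 2 cells, was at 181 and 164 CPM against 323 and 179 CPM, with tdLN library 1 alone above the rest.

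MHC class II genes were slightly lower in most members. Of 10 members 8 had both tdLN libraries lower and Ciita alone had both higher. The median log2 fold change was -0.24 (-0.04 without tdLN library 1 and -0.39 without tdLN library 2). None passed the relaxed threshold with edgeR, 1 higher and 2 lower had an unadjusted p under 0.05, and DESeq2's Wald test called 1 higher and 1 lower at 0.05. Cd74, the invariant chain, was at 47633 and 39918 CPM in the ndLN libraries and 34262 and 37653 CPM in the tdLN libraries (adjusted p = 0.42). H2-Ob, a subunit of the peptide-loading modulator H2-O, was at 448 and 458 CPM in the ndLN libraries and 278 and 271 CPM in the tdLN libraries (adjusted p = 0.089), and Ciita, the transactivator of the class II genes, was at 222 and 234 CPM in the ndLN libraries and 333 and 367 CPM in the tdLN libraries (adjusted p = 0.20).

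**Figure D4:**
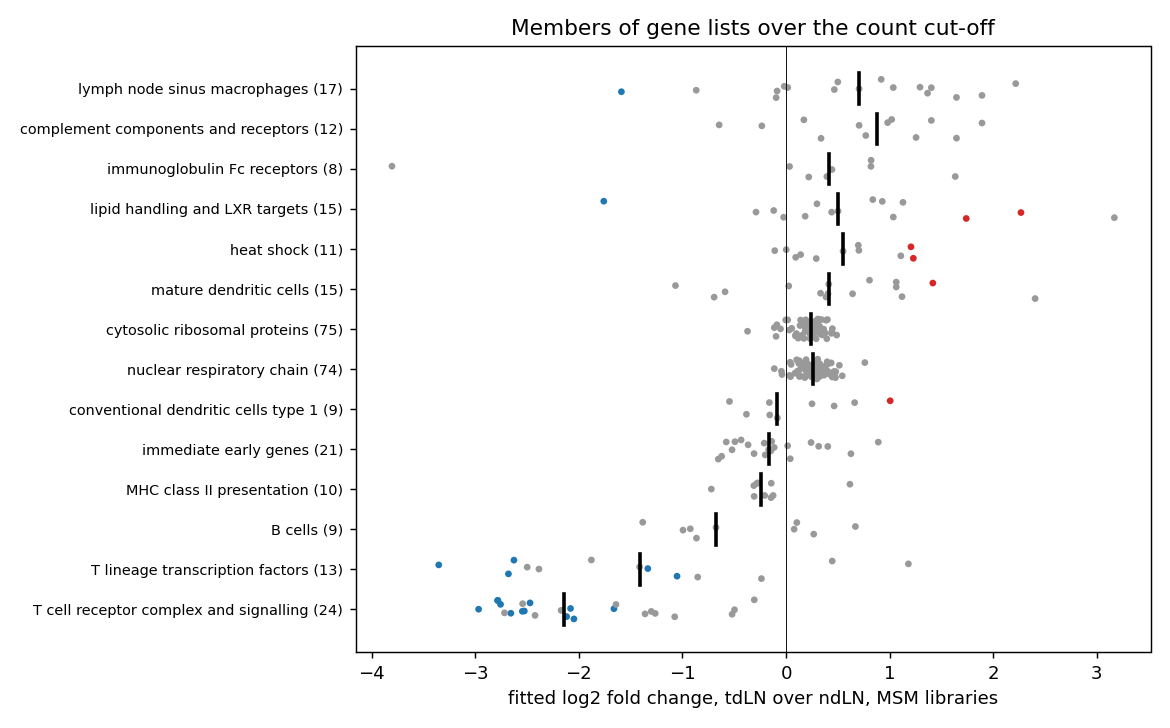
Fitted log2 fold change (tdLN over ndLN in MSMs, horizontal axis) of the members of 14 gene lists with a mean normalized count over 100, 1 point per gene and their number in parentheses, with a black bar at the median. Blue and red points passed an adjusted p of 0.05 as lower and higher. The T cell lists lie to the left of 0 with nearly all members, the respiratory chain and ribosomal lists form narrow clouds mostly right of 0, and the macrophage, lipid and mature dendritic cell lists spread over both sides.

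Heat shock genes, which encode chaperones, were higher in most members. Of 11 members 8 had both tdLN libraries higher and none both lower, 2 rose at the relaxed threshold, and the median log2 fold change was 0.55. Hspa1a, an inducible HSP70, was at 655 and 509 CPM in the ndLN libraries and 1299 and 1388 CPM in the tdLN libraries (log2 fold change 1.21 ± 0.16 SE, adjusted p = 0.032). Hspa1b, its neighbour on the chromosome, was at 1187 and 878 CPM in the ndLN libraries and 2452 and 2376 CPM in the tdLN libraries (log2 fold change 1.23 ± 0.16 SE, adjusted p = 0.032). The pair shares 66.3% (Hspa1a) and 62.3% (Hspa1b) of 50-base windows with other genes, mainly with each other, and their counts cannot be fully separated. Hspb1, a small heat shock protein, was at 8.43 and 9.003 CPM against 19.1 and 18.6 CPM (adjusted p = 0.20) and the co-chaperone Dnajb1 at 490.0 and 398 CPM against 797 and 648 CPM (adjusted p = 0.16). Hspb1 shares 50.1% of its windows with other genes, so that its counts are uncertain too.

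The 250 bases before the start of Hspa1a, Hspa1b and Hspb1 are shown because the heat shock element, the site of heat shock factors, can be read in them. The sequences are from RefSeq (GRCm38.p6), 5′ to 3′ in the sense of the gene, and capitals mark GAANNTTC, a palindrome that reads alike on both strands. Hspa1a lies at chr17:34972157-34972406 and Hspa1b at chr17:34959239-34959488, both on the minus strand, and Hspb1 at chr5:135887669-135887918 on the plus strand.
Hspa1a: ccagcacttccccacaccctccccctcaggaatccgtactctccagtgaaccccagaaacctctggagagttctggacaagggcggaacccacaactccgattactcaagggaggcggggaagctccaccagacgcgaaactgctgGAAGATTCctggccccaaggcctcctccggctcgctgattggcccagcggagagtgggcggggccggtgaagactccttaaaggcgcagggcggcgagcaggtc
Hspa1b: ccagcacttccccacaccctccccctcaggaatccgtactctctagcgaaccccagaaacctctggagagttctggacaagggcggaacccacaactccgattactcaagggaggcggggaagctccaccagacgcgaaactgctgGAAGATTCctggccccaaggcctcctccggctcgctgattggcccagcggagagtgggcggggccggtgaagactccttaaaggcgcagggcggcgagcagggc
Hspb1: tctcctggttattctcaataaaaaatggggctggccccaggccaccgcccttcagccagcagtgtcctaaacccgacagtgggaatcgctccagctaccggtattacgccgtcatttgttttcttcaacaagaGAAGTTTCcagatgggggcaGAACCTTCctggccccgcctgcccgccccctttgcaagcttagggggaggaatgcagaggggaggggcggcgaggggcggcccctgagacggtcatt
RefSeq promoters were matched for 8 of the 11 heat shock genes and 5 of them held the motif (62.5%), as did 6.78% of 27025 mouse promoters of that length. The upstream stretches of Hspa1a and Hspa1b hold the motif once each, and that of Hspb1 holds it 2 times. A match describes the letters only.

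Respiratory chain genes encoded in the nucleus were higher by a small amount in most members. Of 81 genes 77 were tested, 50 had both tdLN libraries higher and none both lower, and the median log2 fold change was 0.26 (0.16 in the libraries numbered 1 and 0.37 in those numbered 2, 0.10 without tdLN library 2 and 0.44 without tdLN library 1). None passed the relaxed threshold with edgeR or with DESeq2's Wald test, and 7 had an unadjusted p under 0.05, all higher. Over all 21085 genes tested 1173 were higher and 1344 lower at that p. Ndufa6, a subunit of complex I, had the smallest p-value and was at 75.1 and 87.4 CPM in the ndLN libraries and 112 and 164 CPM in the tdLN libraries (log2 fold change 0.76 ± 0.27 SE, adjusted p = 0.32). Genes of the cytosolic ribosome had a median of 0.23 (-0.02 without tdLN library 2 and 0.46 without tdLN library 1), but only 1 of 78 tested had both tdLN libraries higher and 1 both lower. Libraries 2 of both groups were higher than libraries 1 in the summed level of ribosomal genes, at 16320.0 and 20160.0 CPM in ndLNs and 17970.0 and 23690.0 CPM in tdLNs.

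Socs3, Ahr and Odc1 fell at the relaxed threshold. Socs3, an inhibitor of cytokine signalling, was at 533 and 427 CPM in the ndLN libraries and 248 and 207 CPM in the tdLN libraries (log2 fold change -1.08 ± 0.12 SE, adjusted p = 0.022). Ahr, the aryl hydrocarbon receptor, was at 637 and 572 CPM in the ndLN libraries and 357 and 305 CPM in the tdLN libraries (log2 fold change -0.87 ± 0.11 SE, adjusted p = 0.032), and Odc1, the first enzyme of polyamine synthesis, at 983 and 1043 CPM in the ndLN libraries and 454 and 438 CPM in the tdLN libraries (log2 fold change -1.18 ± 0.12 SE, adjusted p = 0.018). Odc1 shares 24.3% of its 50-base windows with other genes. Socs3 belongs to the list of polarization and immunosuppression, and Ahr and Odc1 were named after their values were seen. In that list of 23 genes Socs3 was the 1 that passed, 9 had both tdLN libraries higher and 4 both lower. The M2 marker Retnla was at 0.282 and 10.96 CPM against 39.99 and 65.1 CPM (adjusted p = 0.23), Il10 at 2.03 and 1.47 CPM against 4.07 and 5.68 CPM (adjusted p = 0.28) and Lgals1 at 74.9 and 82.8 CPM against 149 and 167 CPM (adjusted p = 0.13), all without passing.

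Further myeloid genes past the relaxed threshold, named after their values were seen, were found on both sides. Treml4, a receptor for dying cells, was at 161 and 127 CPM in the ndLN libraries and 60.9 and 52.3 CPM in the tdLN libraries (adjusted p = 0.03), Lrrc32, which binds latent TGF-beta, at 101 and 101 CPM in the ndLN libraries and 15.8 and 18.9 CPM in the tdLN libraries (adjusted p = 0.012) and Dcstamp, a fusion protein of dendritic cells and osteoclasts, at 114 and 119 CPM in the ndLN libraries and 30.4 and 27.6 CPM in the tdLN libraries (adjusted p = 0.018). All 3 fell. Clec4a3, a C-type lectin, was at 29.9 and 34.3 CPM in the ndLN libraries and 149 and 95.1 CPM in the tdLN libraries (adjusted p = 0.041), Cd38, an NAD-consuming enzyme, at 28.5 and 21.04 CPM in the ndLN libraries and 79.3 and 64.4 CPM in the tdLN libraries (adjusted p = 0.018) and Osm, the cytokine oncostatin M, at 58.9 and 46.1 CPM in the ndLN libraries and 141 and 101 CPM in the tdLN libraries (adjusted p = 0.03). These 3 rose. In each of the 6 genes the 2 groups did not overlap, as in 91 of the 93 genes past the relaxed threshold. The 2 exceptions were Iglv2 and Ighv7-3. Since the test selects such genes, this is no further result. Of all genes over the count cut-off, 24.98% had both tdLN libraries higher and 24.85% both lower.

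**Figure D5:**
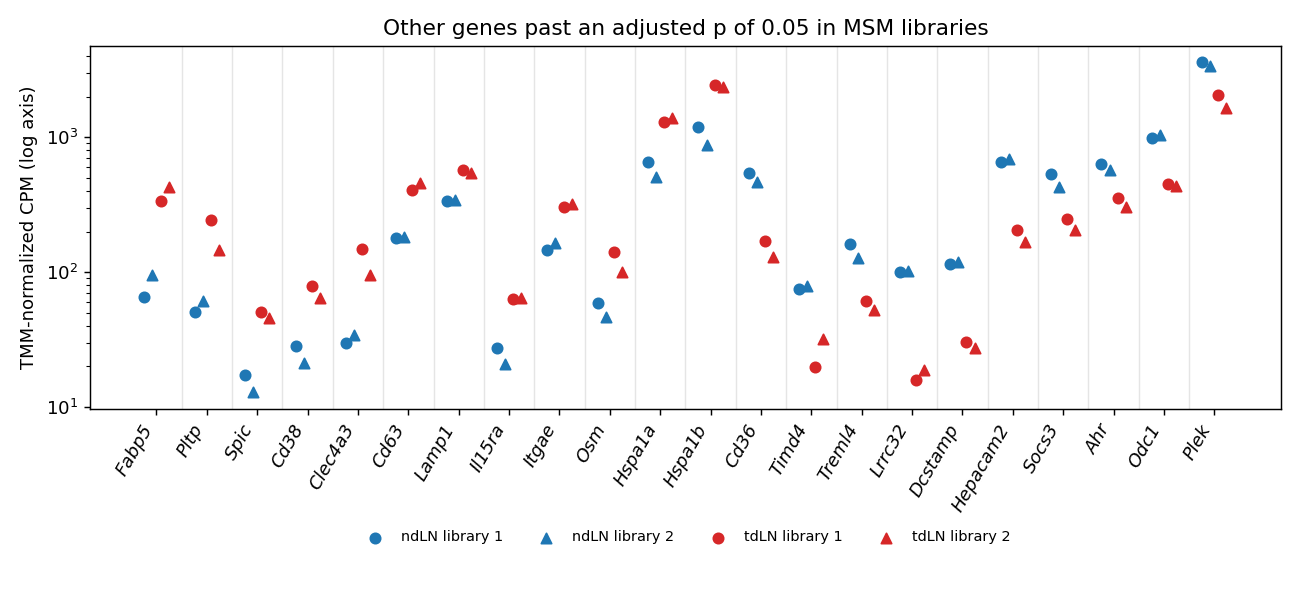
TMM-normalized CPM (log axis) in each MSM library for further genes past the relaxed threshold, with the 12 that rose to the left (Fabp5 to Hspa1b) and the 10 that fell to the right (Cd36 to Plek). Blue marks ndLNs and red tdLNs, circles are libraries 1 and triangles libraries 2. The groups do not overlap in any of these genes, which is no further result since the test selects such genes.

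Chemokines and interferon-stimulated genes gave no called member. Of 47 chemokine genes 33 were tested, 12 with both tdLN libraries higher and 5 both lower. None passed the relaxed threshold with edgeR. At an unadjusted p under 0.05, 7 were higher and 1 lower, and DESeq2's Wald test called 6 at 0.05, all higher. Ccl8, a monocyte attractant, was at 20.1 and 25.05 CPM in the ndLN libraries and 59.6 and 106 CPM in the tdLN libraries (adjusted p = 0.099), and Cxcl9, induced by interferon gamma, at 374 and 258 CPM in the ndLN libraries and 128 and 157 CPM in the tdLN libraries (adjusted p = 0.34). Of 30 interferon-stimulated genes 10 had both tdLN libraries higher and 2 both lower, and none passed with edgeR. At an unadjusted p under 0.05, 6 were higher and 2 lower, and DESeq2's Wald test called 3 at 0.05, all higher. Their median difference was -0.21 in the libraries numbered 1 and 0.89 in those numbered 2, beside a fitted median of 0.32 (-0.09 without tdLN library 2 and 0.81 without tdLN library 1). Ifit2, for example, was at 109 and 12.7 CPM in the ndLN libraries and 50.7 and 78.4 CPM in the tdLN libraries, so the 2 ndLN libraries bracketed both tdLN libraries.

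Cell cycle genes gave no called member. Of 22 cell cycle genes none passed the relaxed threshold and none had an unadjusted p under 0.05 with edgeR, DESeq2's Wald test called none either, and the median was 0.02. Markers of other cells that the sort could have let through were low: S100a8 of neutrophils was at 0.897 and 0.0223 CPM against 0.121 and 0.0220 CPM, Cpa3 of mast cells at 0.0256 and 0.0891 CPM against 0.0727 and 0.330 CPM, Siglecf of eosinophils at 1.92 and 2.79 CPM against 2.18 and 1.41 CPM, Prox1 of lymphatic endothelium at 0 and 0 CPM against 0.291 and 0.726 CPM and the keratin gene Krt14 at 0 and 0 CPM against 0 and 0.110 CPM. Krt5 had too few counts to be tested. Siglech of plasmacytoid dendritic cells was at 4.95 and 10.7 CPM against 7.59 and 4.38 CPM and Ly6c2 of monocytes at 36.4 and 34.3 CPM against 47.9 and 36.9 CPM. Of 12 basophil and mast cell genes 8 had both tdLN libraries lower, most of them near 0. The abundant members were Kit at 606 and 614 CPM against 374 and 269 CPM (adjusted p = 0.16) and Hdc at 64.5 and 69.6 CPM against 34.6 and 41.6 CPM (adjusted p = 0.25).

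Where the change in MSMs was set against that in SSMs, the difference of the log2 fold changes passed an adjusted p of 0.01 in 8 genes (0.0379% of all tested) and 0.05 in 215 (1.02%). Of the 215, 44 had the higher and 171 the lower change in MSMs. Of the 93 genes past the relaxed threshold in MSMs, 16 were among the 215. The 93 had been selected on their change in MSMs, which is part of this difference. The count of 16 is thus no independent result. Itgae was the 1 of the 16 with the higher change in MSMs (difference of the log2 fold changes 1.65 ± 0.18 SE, adjusted p = 0.018), and in SSMs it was at 148 and 174 CPM in the ndLN libraries and 101 and 104 CPM in the tdLN libraries. The 15 others had the lower change in MSMs, Hspa1a and Hspa1b among them. The log2 fold change of both was larger in SSMs, with Hspa1b there at 359 and 359 CPM in the ndLN libraries and 2005 and 2430.1 CPM in the tdLN libraries (difference of the log2 fold changes -1.40 ± 0.23 SE, adjusted p = 0.041). For the other genes past the relaxed threshold no difference between the fractions was called, which does not show that they changed alike. Of the 10 MHC class II genes 7 passed this test of the difference, all with the lower change, not the lower level, in MSMs. In H2-Ab1, Cd74 and H2-DMb1 the log2 fold change was -0.31, -0.27 and -0.12 in MSMs. In SSMs it was 2.17, 2.01 and 2.41.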

How the data were processed

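RNA of sorted macrophage fractions had been amplified with SMART-Seq v4 and sequenced on 2 lanes. Per the labels and the submitters' processing notes, the authors used bcl2fastq 2.20.0.422, Trimmomatic 0.36 and STAR 2.5.3a on GRCm38, and deposited whole-number counts per gene, with no normalization. The counting mode and strand setting are not given in the sources used here, so overlapping and antisense genes cannot be separated. Of 55423 genes in the table, 55240 identifiers were matched to GENCODE M21 for symbols and positions.

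The 2 lanes of a library were summed, since they differed by counting noise only (chi-square per degree of freedom between 0.955 and 1.02). The methods speak of 4 pools as biological replicates and the study's sample matrix numbers the lanes as pools, whereas the labels give 2 pools on 2 lanes each, which sets n = 2 here. Genes with at least 10 counts in all and detected in at least 2 samples were fitted over all 8 libraries with edgeR 4.0.16 (R 4.3.3, quasi-likelihood F-test, TMM, group and pool number, Benjamini-Hochberg). Genes were called at an adjusted p under 0.01 with a mean normalized count over 100 on the scale of 1 lane. DESeq2 1.42.0 was an alternative, and further ones changed filter, block, lanes and libraries. The fit was tested on simulated data. With 200 genes changed 4-fold, edgeR called 158 genes, 1 of them false, and the DESeq2 Wald test called 205, 17 of them false. With no gene changed, edgeR made 0 calls and the DESeq2 Wald test 8, all false. Calls of the Wald test are thus to be read with more caution than those of edgeR. All adjusted p-values are from edgeR unless stated, over all genes tested. Each pool is 1 of 2 libraries per group. The p-values rest on the spread left within the groups over all 8 libraries once the pool number was fitted. That spread was also moderated across genes, so it is not that of the MSM pools alone. Pool numbers came from the labels, except that the tdLN SSM library with no number in its title took number 1. By the study's methods each pool of mice gave all 4 kinds of library, so the number was kept as a block, although deviations of same-numbered libraries correlated only between -0.186 and 0.15 (-0.01 for the MSM pair).

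The members, the 48 gene lists and the markers were chosen with earlier results of these data known. The rule for named genes took the given markers, all called genes, the called, most abundant or lowest-p members of each list, and defining markers of other cell types. A few results under this rule are not reported here. Genes named beyond it were chosen after their values were seen. Floors of 3 counts cover counting error only. Sequences are from RefSeq (GRCm38.p6), where promoters were found for Hspa1a, Hspa1b and Hspb1. Figures were drawn with matplotlib 3.10.9.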

Additional observations from a re-analysis of the deposited data

Results flagged for a closer look

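In 8 genes the change from ndLNs to tdLNs differed between the fractions by the interaction term at an adjusted p under 0.01, and they are given here as values. Tumor drainage and node position cannot be told apart in this change. The antigen presentation genes H2-Ab1, Cd74 and H2-DMb1 differed by -2.48, -2.28 and -2.53 on the log2 scale (MSM change minus SSM change, adjusted p = 0.0081, 0.0085 and 0.0085). H2-Ab1, a class II chain, was at 31880.0 and 27318 CPM against 23585 and 23939 CPM (ndLN against tdLN) in MSMs, while in SSMs it was at 2770.1 and 2121 CPM in the ndLN libraries and 12022 and 9961 CPM in the tdLN libraries. Plbd1 and Fgd2 differed by -2.23 and -2.15. Kmo, an enzyme of tryptophan breakdown, was at 135 and 129.9 CPM against 207 and 189 CPM in MSMs and at 6.75 and 6.97 CPM in the ndLN libraries and 62.9 and 69.3 CPM in the tdLN libraries in SSMs, a difference of -2.69. Htr7, a serotonin receptor, differed by -2.95. Tnfrsf9 (4-1BB), a costimulatory receptor, differed by 2.34, with 37.4 and 48.1 CPM against 70.9 and 76.7 CPM in MSMs, whereas in SSMs it was at 469 and 614 CPM in the ndLN libraries and 175 and 195 CPM in the tdLN libraries. None of the 8 passed an adjusted p of 0.05 in MSMs alone, and without any 1 MSM library no interaction was called at 0.01. With DESeq2 size factors 4 of the 8 were called, and Tnfrsf9 was not among them.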

How the results depend on the processing

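Counts of called genes moved with nearly every choice. In place of 5 genes (1 higher and 4 lower), the DESeq2 Wald test called 496 (172 and 324), a filter of at least 1 CPM in 2 libraries 62 (15 and 47), lane 3 alone 24 (5 and 19), lane 4 alone 17 (3 and 14), the legacy quasi-likelihood fit 23 (3 and 20), an adjusted p under 0.05 93 (26 and 67), and every lane taken as a sample in a DESeq2 likelihood ratio test 2675 (1098 and 1577), where lanes are no replicates. The 4 MSM libraries alone gave 0 (0 and 0) with the pairing by pool number and 0 (0 and 0) without it. Without the replicate block 9 (0 and 9) were called. Of the 93 genes past 0.05, 88 passed there too. DESeq2 size factors, no filter on low counts and no count cut-off gave 5, 7 and 5. With 1 MSM library left out the range was 0 to 3 (higher 0 to 3, lower 0 to 1), the lone sample being assumed to vary like the other groups. The interaction gave 8, with the DESeq2 Wald test 677, at an adjusted p under 0.05 215, without the block 11 and with 1 library left out 0 to 0. Alternatives chosen after seeing the data gave 4 with DESeq2 size factors (Tnfrsf9 was no longer called), 95 at 1 CPM or more in 2 libraries, 12 with no filter on low counts, and 25 and 29 in lanes 3 and 4. The causes of these differences were not tested.

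The directions moved less, but the 93 genes had been selected on these same libraries. Their directions were thus largely fixed in advance and are no support. All 93 kept their direction wherever they could be fitted, except Iglv2. The Iglv2 log2 fold change of -7.63 turned to 2.24 without ndLN library 1 and was -12.23 without tdLN library 2. The median of the T cell list stayed between -2.37 and -1.89 over 7 alternatives, while that of the interferon-stimulated genes ranged from -0.09 to 0.81. Levels under 3 counts, at most 0.0697 CPM in the MSM libraries, could not be told from 0.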

Other observations

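Further gene groups, described by their counts alone, held few or no genes past the relaxed threshold. Of all 9988 genes over the count cut-off, 815 were higher and 1004 lower at an unadjusted p under 0.05. DESeq2's Wald test called 281 higher and 530 lower among them at 0.05. Of 21 immediate early genes, the first responders to stimulation, 10 had both tdLN libraries lower and 5 both higher. None passed with edgeR. At an unadjusted p under 0.05, 3 were higher and 5 lower, and DESeq2's Wald test called 1 higher and 3 lower at 0.05. Of 13 genes of MHC class I presentation 7 had both tdLN libraries higher and 1 both lower, and the median log2 fold change was 0.15, but 0.00045 in the libraries numbered 1 and 0.44 in those numbered 2, and 0.02 without tdLN library 2 and 0.32 without ndLN library 1. None passed with either tool, and 2 had an unadjusted p under 0.05, both higher. Of 16 glycolysis genes 8 had both tdLN libraries higher and 3 both lower, with a median of 0.16 (0.07 without ndLN library 2), and none passed with edgeR. At an unadjusted p under 0.05, 3 were higher and 1 lower, and DESeq2's Wald test called 1, higher.

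Of 10 genes of type 2 dendritic cells 4 had both tdLN libraries higher and 1 both lower, with a median of 0.54 (0.78 in the libraries numbered 1 and 0.14 in those numbered 2, 0.10 without tdLN library 1 and 0.88 without tdLN library 2), and none passed with edgeR, while 2 had an unadjusted p under 0.05 and DESeq2's Wald test called 1. Of 29 integrin genes tested 8 had both tdLN libraries higher and 7 both lower, with Itgae the 1 that passed. In the apoptotic cell uptake list the median was 0.56 (0.46 in the libraries numbered 1 and 0.10 in those numbered 2, 0.17 without tdLN library 1), and Timd4 was the 1 of 16 members that passed, in the direction opposite to that median.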
